A study of Mus musculus with 8 samples.

Results

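The genes described here were Mars1, Ddit3 and Mbd6, neighbours on mouse chromosome 10, together with Atf4, Trib3 and Asns, and made up 6 of the 49997 genes counted in 8 RNA-seq libraries of the mouse breast cancer line EO771. Mars1 and Mbd6 were chosen on these counts, because they were lower with both treatments of the study. Ddit3 was chosen by its place beside Mars1 on the opposite strand, and Atf4, Trib3 and Asns were chosen by their function in the integrated stress response. The values of Mars1 and Mbd6 under the treatments are therefore a description with no test, whereas the other members were tested.

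There were 4 groups of 2 libraries, and all groups shared the same cell line. In the first experiment, cells were kept for 48 h with 12-HETE, a lipid made from arachidonic acid by 12-lipoxygenase, at 100 nM, or with its vehicle of saline and 2% DMSO. The second experiment compared transduction of an empty vector with that of a vector to overexpress ADAR1 p150, the long isoform of an enzyme that deaminates adenosine in double-stranded RNA. The promoter of that vector, and whether the transduced cells were 1 clone, are not given in the sources used here. The sample labels do not say whether libraries of a group came from separate cultures. A figure legend of the study gives 2 independent experiments for RNA editing in these comparisons. Another legend gives a higher number for editing and expression with 12-HETE against vehicle, where 2 libraries a group were used here. The p-values measure the spread between these libraries only. In bulk RNA, a lower level in every cell and a loss of the cells that carry a transcript cannot be told apart.

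Mars1 encodes the cytosolic methionyl-tRNA synthetase, which charges methionine onto its tRNAs. Ddit3 encodes CHOP, a C/EBP-family transcription factor that is induced by endoplasmic reticulum stress and by amino acid shortage. Mbd6 encodes a methyl-CpG-binding domain protein that joins the PR-DUB deubiquitinase of histone H2A. In the integrated stress response, kinases phosphorylate the initiation factor eIF2, bulk translation falls and Atf4 mRNA is translated more, a step that RNA counts do not measure. ATF4 protein then induces Ddit3, the pseudokinase gene Trib3, asparagine synthetase (Asns), and many genes of amino acid transport and tRNA charging.

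In GRCm38, RefSeq places Mbd6 at chr10:127281956-127290869 on the minus strand, Ddit3 at chr10:127290793-127296291 on the plus strand and Mars1 at chr10:127296221-127311786 on the minus strand. In RefSeq the span of Ddit3 overlapped that of Mars1 by 71 bases and that of Mbd6 by 77 bases. These spans form an unbroken run with Ddit3 between the other 2 genes. In GENCODE the span of Mbd6 ends at 127289018, before that of Ddit3 starts at 127290774. In the GENCODE models the exons of Ddit3 and Mars1 shared 68 bases and those of Ddit3 and Mbd6 shared 0. Whether the counting used strand is not stated, and reads of overlapping genes on opposite strands then cannot be told apart. Atf4 at chr15:80255184-80257545, Trib3 at chr2:152337425-152344060 and Asns at chr6:7675165-7693209 overlapped no opposite-strand gene of the count table. Their strands were plus, minus and minus.

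The promoters below show where the 3 genes of the locus carry a CCAAT box, and where a known ATF4 target carries the C/EBP-ATF element. They are RefSeq sequences of GRCm38.p6 from 250 bases before to 30 bases after an annotated start, in the direction of the gene. Capitals in the 3 genes of the locus mark the CCAAT box, read as CCAAT or, on the other strand, ATTGG, and capitals in Asns mark the C/EBP-ATF element TGATGNAA. The windows are chr10:127311757-127312036 (minus) for Mars1, chr10:127290543-127290822 (plus) for Ddit3, chr10:127288989-127289268 (minus) for the first of the starts listed for Mbd6, and chr6:7693180-7693459 (minus) for Asns.
Mars1: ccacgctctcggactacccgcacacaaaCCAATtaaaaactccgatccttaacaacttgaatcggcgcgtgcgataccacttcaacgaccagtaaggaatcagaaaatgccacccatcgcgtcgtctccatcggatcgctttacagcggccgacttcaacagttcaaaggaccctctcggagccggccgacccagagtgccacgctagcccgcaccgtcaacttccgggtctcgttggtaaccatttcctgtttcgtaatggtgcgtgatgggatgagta
Ddit3: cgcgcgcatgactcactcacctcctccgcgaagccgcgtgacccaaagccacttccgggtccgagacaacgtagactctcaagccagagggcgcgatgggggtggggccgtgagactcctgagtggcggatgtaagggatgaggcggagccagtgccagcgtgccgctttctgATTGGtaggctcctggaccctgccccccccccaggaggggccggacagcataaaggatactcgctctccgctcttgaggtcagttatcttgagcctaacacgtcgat
Mbd6: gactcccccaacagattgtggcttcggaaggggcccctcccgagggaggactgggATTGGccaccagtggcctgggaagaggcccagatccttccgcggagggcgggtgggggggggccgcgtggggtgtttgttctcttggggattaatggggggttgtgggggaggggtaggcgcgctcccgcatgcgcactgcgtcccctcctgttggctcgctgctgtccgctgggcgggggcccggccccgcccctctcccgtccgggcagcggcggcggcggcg
Asns: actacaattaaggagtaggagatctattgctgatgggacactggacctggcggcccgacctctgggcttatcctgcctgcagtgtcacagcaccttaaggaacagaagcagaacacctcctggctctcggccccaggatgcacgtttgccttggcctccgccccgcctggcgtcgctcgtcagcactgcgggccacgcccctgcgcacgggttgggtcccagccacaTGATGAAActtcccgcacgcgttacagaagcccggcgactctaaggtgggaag

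Motifs were searched in windows of 300 bases, from 250 before to 50 after the start, somewhat longer than the sequences printed above. The C/EBP-ATF element TGATGNAA, searched on both strands, was in 3.97% of 32851 mouse promoters. Among the 6 members it was found in the windows of Asns, starting 23 bases before the start of transcription, and Trib3, where it read TTACATCA on the opposite strand. These letters were not found in the windows of Mars1, Ddit3, Mbd6 or Atf4. The CCAAT box was in 37.4% of promoters and was found in Mars1, Ddit3, Mbd6 and Atf4, in Atf4 at 2 positions. The ER stress element, a CCAAT box followed at a fixed distance by CCACG, had an exact match in 0.119% of promoters and in no member. In Ddit3 the marked CCAAT box, read on its own strand, is followed at that distance by GCACG in place of CCACG. Near matches were not searched for. A match is a description of letters, not of binding.

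The deposited counts summed to between 1101767 and 1537037 per library, of which 1 gene, AY036118, took 44.4% to 50.3%. A minimum mean count of 10 left 6901 genes for testing, and 5 of the 6 members passed it. Adar, the overexpressed gene, had 181 and 140 counts in the ADAR1 p150 libraries against 2 to 8 in the other 6 libraries. Of the epithelial markers, Krt8, Krt18 and Krt19 were counted in every library, Epcam had 1 to 4 counts, and Cdh1 was at 0 in all 8 libraries. Of the immune markers, Cd3e and Adgre1 were at 0 in every library, and nearly all counts of the list were from Cd68. The summed immune level was 13.7 to 18.3 CPM with vehicle and 6.91 to 9.65 with 12-HETE, and 18.6 to 21.2 with vector and 11.7 to 17.7 with ADAR1 p150. The summed level of the endothelial markers (Pecam1, Cdh5 and Kdr, all at 9 counts or fewer) was 6.43 to 8.3 CPM with vehicle and 0.742 to 2.07 with 12-HETE, without overlap, and 5.31 to 7.62 with vector and 1.36 to 8.06 with ADAR1 p150. Cdh5 was at 0 in both 12-HETE libraries. The part of these markers in the results below was not tested.

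Mars1 and Mbd6 were both about 5-fold lower with either treatment. The vehicle libraries held 267 and 326 counts of Mars1 and the 12-HETE libraries 67 and 65. In the second experiment the vector libraries held 313 and 312 and the ADAR1 p150 libraries 65 and 79. The treated libraries lay far below all 4 control libraries, with no overlap. In CPM, the count scaled by the library total and its TMM factor, the level of Mars1 was 242 ± 28.7 (SD, n = 2) with vehicle, 47.3 ± 1.36 with 12-HETE, 271 ± 8.99 with vector and 51.1 ± 9.59 with ADAR1 p150. The log2 fold change was -2.35 (SE 0.15), a 5.11-fold lower level, with 12-HETE, and -2.41 (SE 0.15), a 5.3-fold lower level, with ADAR1 p150.

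Mbd6 had nearly the same profile. Its counts went from 299 and 302 (vehicle) to 75 and 62 (12-HETE), and from 345 and 335 (vector) to 90 and 93 (ADAR1 p150). The groups of each experiment did not overlap. The levels were 246 ± 3.72 (SD, n = 2), 48.9 ± 4.12, 295 ± 15.2 and 64.8 ± 4.79 CPM in the same order, and the log2 fold changes were -2.32 (SE 0.14) and -2.18 (SE 0.13), 5-fold and 4.55-fold lower. Ranked from the lowest log2 fold change of the 6901 genes, Mars1 stood at place 87 with 12-HETE and 42 with ADAR1 p150, and Mbd6 at 94 and 50. Since these genes were chosen on these contrasts, the shares of all genes called lower (2-fold or more, with an adjusted p under 0.05) are given only for scale: 8.25% with 12-HETE and 4.69% with ADAR1 p150.

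Ddit3, which lies between them, did not follow Mars1 and Mbd6 with 12-HETE. Its counts were 230 and 217 in the vehicle libraries next to 216 and 192 in the 12-HETE libraries. They were 239 and 232 in the vector libraries next to 90 and 115 in the ADAR1 p150 libraries. In raw counts the 12-HETE libraries sat just under the vehicle libraries, while the ADAR1 p150 libraries lay well below every other library. The levels were 183 ± 11.6 (SD, n = 2) CPM with vehicle, 146 ± 4.82 with 12-HETE, 204 ± 10.6 with vector and 72.8 ± 16.2 with ADAR1 p150.

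With 12-HETE, the log2 fold change of Ddit3 was -0.32 (SE 0.13) and did not pass the test (edgeR quasi-likelihood test, adjusted p = 0.0634). Over the alternatives its adjusted p ranged from 0.0333 to 0.288 in edgeR and DESeq2. In edgeR it passed 0.05 where every library had to hold at least 10 counts (adjusted p = 0.0333) and where only these 4 libraries were fitted (adjusted p = 0.0361). With ADAR1 p150, Ddit3 fell 2.81-fold, at a log2 fold change of -1.49 (SE 0.14, edgeR adjusted p = 5.33e-10). The effect of 12-HETE minus that of ADAR1 p150 was 1.17 on the log2 scale (SE 0.20, edgeR adjusted p = 6.19e-05). By that contrast, 2.19% of tested genes were called higher and 6.14% lower.

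**Figure D1:**
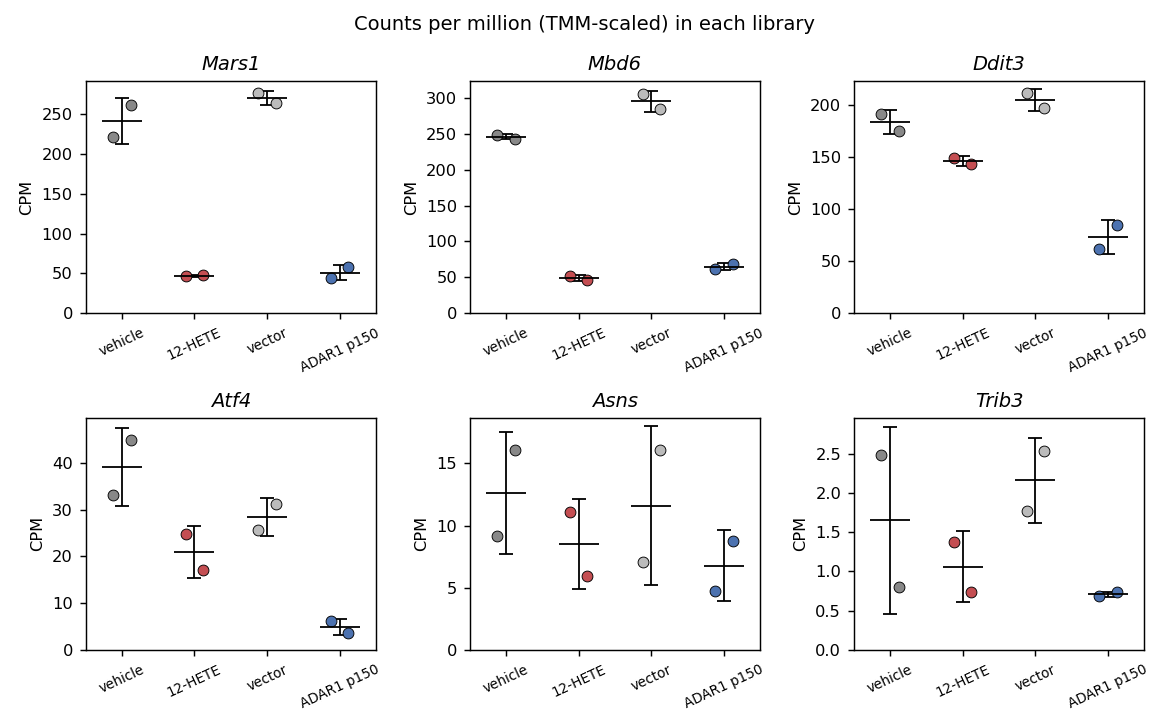
Level of each member in CPM (y axis, from 0, a scale of its own per gene) in the 8 libraries. Points are libraries, and bars are the group mean and SD (n = 2). Mars1 and Mbd6 are low in both treated groups, Ddit3 and Atf4 are lowest with ADAR1 p150, and Trib3 stays at 1 to 3 counts per library.

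Ratios inside a library do not depend on its scaling. The ratio of Mars1 to Mbd6 counts lay between 0.722 and 1.08 in all 8 libraries, and the treated libraries overlapped the controls in the first experiment (0.893 and 1.05 with 12-HETE, 0.893 and 1.08 with vehicle). In the second experiment the vector libraries had ratios of 0.907 and 0.931, and the ADAR1 p150 libraries were lower, without overlap, at 0.722 and 0.849. The ratio of Mars1 to Ddit3 was 1.16 to 1.5 in the 4 control libraries, 0.31 and 0.339 with 12-HETE, and 0.722 and 0.687 with ADAR1 p150. That of Mbd6 to Ddit3 was 1.3 to 1.44 in controls, 0.347 and 0.323 with 12-HETE, and 1 and 0.809 with ADAR1 p150. As Mars1 and Mbd6 were both chosen for lower counts in both treatments, their likeness to each other and their shift against Ddit3 follow in part from that choice.

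**Figure D2:**
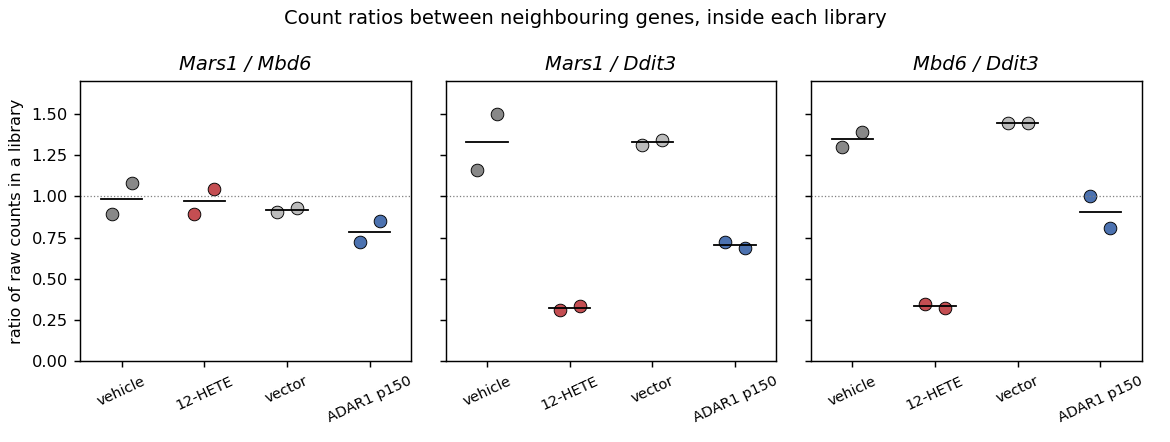
Ratio of raw counts between pairs of the locus inside each library (y axis, no unit). Points are libraries, bars are the mean of 2, and the dotted line marks equal counts. Mars1 over Mbd6 stays between 0.722 and 1.08, while both ratios to Ddit3 are lowest with 12-HETE and lie at or below 1 with ADAR1 p150.

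Atf4 was lower in both treated groups, and more so with ADAR1 p150. The vehicle libraries held 40 and 56 counts of it and the 12-HETE libraries 36 and 23. The vector libraries held 29 and 37 and the ADAR1 p150 libraries 9 and 5. Neither experiment had an overlap between its groups. In raw counts 1 12-HETE library was within the range of the vector libraries. In CPM both 12-HETE libraries (24.9 and 17.1) were below the vector libraries (25.7 and 31.3). The levels were 39.1 ± 8.37 (SD, n = 2), 21 ± 5.53, 28.5 ± 4.01 and 4.9 ± 1.75 CPM in the order vehicle, 12-HETE, vector and ADAR1 p150. Atf4 fell by 0.89 on the log2 scale with 12-HETE (SE 0.28, edgeR adjusted p = 0.0136), which is 1.85-fold and so under the 2-fold rule. At an adjusted p alone, 14.2% of all genes were lower in that comparison and 11.1% with ADAR1 p150. With ADAR1 p150 Atf4 fell 5.69-fold, at a log2 fold change of -2.51 (SE 0.39, edgeR adjusted p = 5.52e-06).

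The 12-HETE effect on Atf4 depended on single libraries: without vehicle replicate 5 it was -0.72 (edgeR adjusted p = 0.154) and without 12-HETE replicate 5 it was -0.65 (edgeR adjusted p = 0.169), and DESeq2 gave an adjusted p of 0.15, the range over all alternatives being 0.00325 to 0.169. The difference between the treatment effects on Atf4 was 1.62 (SE 0.50, edgeR adjusted p = 0.022), and 0.109 by DESeq2.

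Asns, the enzyme that makes asparagine, was counted low and its groups overlapped. Its counts were 11 and 20 (vehicle), 16 and 8 (12-HETE), 8 and 19 (vector), then 7 and 12 (ADAR1 p150). The log2 fold changes were -0.56 (SE 0.45, edgeR adjusted p = 0.387) with 12-HETE and -0.79 (SE 0.49, edgeR adjusted p = 0.253) with ADAR1 p150, so a change of either sign was not detectable at this depth. Trib3 counts were 3 and 1 (vehicle), 2 and 1 (12-HETE), 2 and 3 (vector), then 1 and 1 (ADAR1 p150). At no more than 3 counts, the level of 1.95 to 2.72 CPM that a count of 0 still allows, Trib3 could not be compared between groups.

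The empty vector and vehicle libraries come from separate experiments and were not used to choose any member. Between them the log2 fold change was 0.16 for Mars1 (edgeR adjusted p = 0.625), 0.26 for Mbd6 (0.378), 0.16 for Ddit3 (0.652), -0.46 for Atf4 (0.534) and -0.12 for Asns (0.943). None of the 5 passed the test, where 3 of 6901 genes (0.0435%) did in either direction. In order of level, Mars1 and Mbd6 were highest with vector and then vehicle, followed by ADAR1 p150 and 12-HETE. The ADAR1 p150 libraries, at 44.3 and 57.9 CPM of Mars1, spanned both 12-HETE libraries. Ddit3 followed the order vector, vehicle, 12-HETE and ADAR1 p150, and Atf4 the order vehicle, vector, 12-HETE and ADAR1 p150.

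Levels of different genes can be set side by side only per length. Per kilobase of exon, Ddit3 had 107 CPM with vehicle, Mars1 70.7, Mbd6 55.2, Atf4 16.6, Asns 4.61 and Trib3 0.776. Mars1 stood apart from its own class in the controls: the other 19 tested cytosolic tRNA synthetases and complex genes lay between 2.04 and 15.3 CPM per kb with vehicle, and up to 20.7 with vector, against 79.2 for Mars1. With 12-HETE, Mars1 was at 13.8 CPM per kb, inside the range of 0.962 to 16.7 of the others. With ADAR1 p150 it was at 14.9 CPM per kb, where Aimp2, the highest of the others, was at 14.8. Mbd6, at 55.2 CPM per kb with vehicle, was likewise above the 7 other tested genes of the methyl-CpG-binding and PR-DUB list, of which Kdm1b was highest at 28.9. With 12-HETE Mbd6 was at 11, below the 44.8 of Kdm1b.

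**Figure D3:**
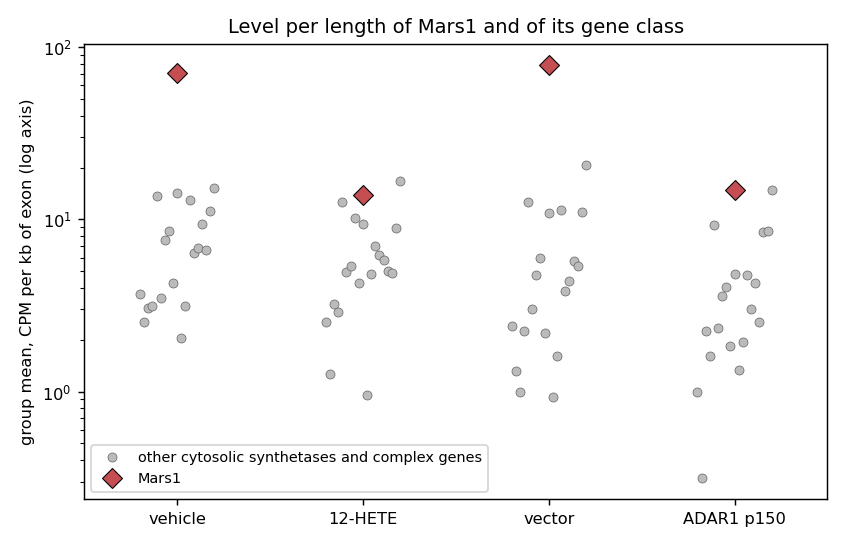
Group mean level per length (CPM per kb of exon, log axis) of Mars1 (diamonds) and of the other 19 tested cytosolic synthetases and complex genes (circles, spread sideways for sight only) in the 4 groups. Mars1 is above all of them with vehicle and vector, at 70.7 and 79.2, and near their upper end with 12-HETE and ADAR1 p150, at 13.8 and 14.9.

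The genes around the locus were chosen by position alone. Of 36 genes of the count table within 250 kb of Mars1, 20 were tested, and 17 of these were not members. With 12-HETE, 0 of the 17 were called in either direction by edgeR or by DESeq2, against 6.12% of all genes higher and 8.25% lower, and 1 was lower at an unadjusted p under 0.05. Their median log2 fold change was 0.00 (range -0.97 to 0.88), where that of all 6901 genes was 0.004. R3hdm2, at -0.97 (SE 0.36, edgeR adjusted p = 0.0368), was the only 1 past the adjusted p, and it missed the 2-fold rule.

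With ADAR1 p150, 0 of the 17 were called higher by edgeR (1 at an unadjusted p under 0.05) and 2 lower, against 8.11% of all genes higher and 4.69% lower. These 2 were Ndufa4l2, at -1.43 (SE 0.47, edgeR adjusted p = 0.0218), and Shmt2, the mitochondrial serine hydroxymethyltransferase and a listed ATF4 target, at -1.33 (SE 0.48, edgeR adjusted p = 0.0361). They overlap each other by 32 bases on opposite strands, with their middles 222.4 and 229 kb from the start of Ddit3, and DESeq2 called 0 of the 17. Lrp1 was at 0.61 (SE 0.20, edgeR adjusted p = 0.0207), under the 2-fold rule. The median of the 17 was 0.05, against 0.21 for 334 tested genes of chromosome 10 and 0.066 for all genes.

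Dctn2, a dynactin subunit gene that overlaps Mbd6 by 4 bases on its other side, was at 0.00 (SE 0.33) with 12-HETE and -0.01 (SE 0.36) with ADAR1 p150. Gli1 and Arhgap9, the nearest tested genes beyond Mars1, were at 0.45 (SE 0.33) and 0.88 (SE 0.44) with 12-HETE, and at 0.36 (SE 0.34) and 0.41 (SE 0.57) with ADAR1 p150. Kif5a, on the Mbd6 side, was at -0.29 (SE 0.36) and -0.81 (SE 0.35). The most counted neighbour, Slc26a10, with a mean of 1062 counts, was at 0.02 (SE 0.10) and 0.10 (SE 0.10), and F420014N23Rik, with a mean of 478 counts, at 0.18 (SE 0.11) and -0.12 (SE 0.11). Both overlap genes on the opposite strand that were counted far less. For Slc26a10 this is B4galnt1 (mean 32.2 counts), and for F420014N23Rik these are Dtx3 (22.1) and Pip4k2c (48.8). Across Cdk4, Tspan31, Agap2, Os9, B4galnt1, Dtx3 and Pip4k2c, none passed the adjusted p with either treatment.

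**Figure D4:**
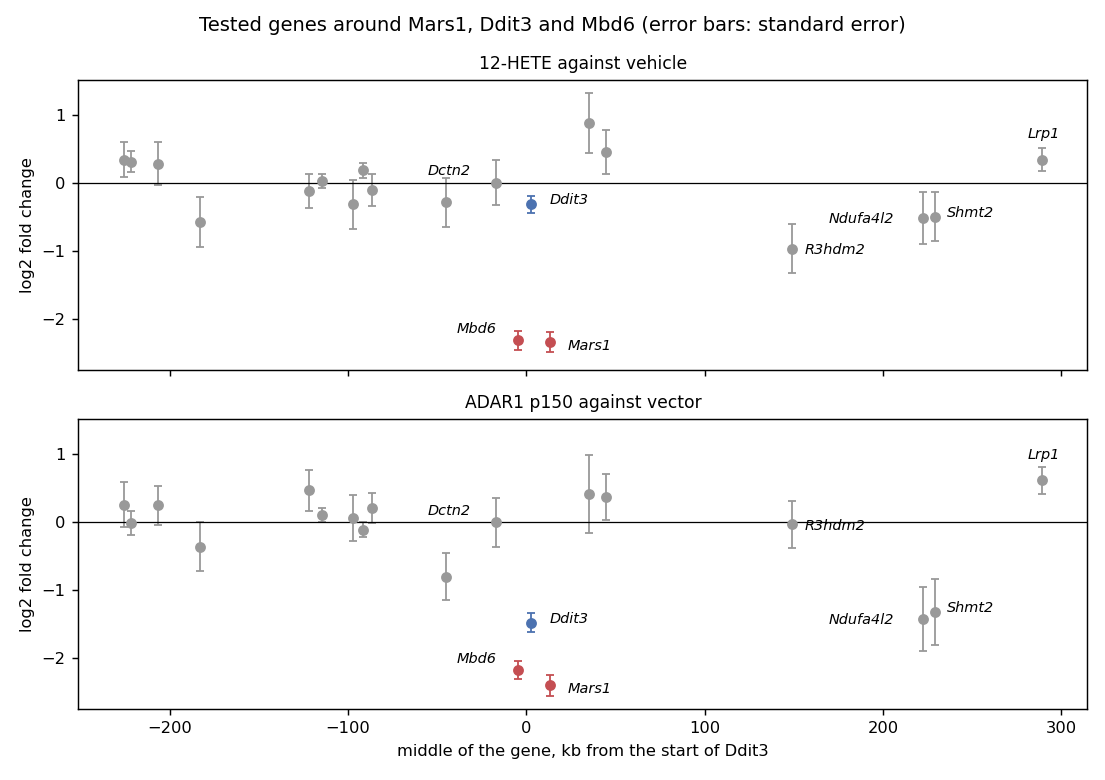
Log2 fold change (y axis, error bars are the standard error) of the 20 tested genes within 250 kb of Mars1 against the distance of each gene's middle from the start of Ddit3 (x axis, kb), for 12-HETE (upper) and ADAR1 p150 (lower). Mars1 and Mbd6, in red, lie below -2 in both panels. Ddit3, in blue, is at -0.32 and -1.49, and most neighbours, in grey, lie near 0.

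Several listed genes shared bases with an opposite-strand gene that was counted far more or far less. Hspa5, which encodes the chief chaperone of the endoplasmic reticulum, had a mean of 117.5 counts, whereas Rabepk, which overlaps it by 1921 bases on the other strand, had 2175. Psph, a serine synthesis gene and listed ATF4 target, had 1008 against 33.4 for Cct6a, a chaperonin subunit gene. Pdia3, a disulphide isomerase gene, had 59.2 against 1379 for Catsper2, a sperm ion channel gene. Within the locus, Mars1, Ddit3 and Mbd6 had means of 186.8, 191.4 and 200.1 counts. How reads were shared between the strands here was not tested. The counts of Mars1, Mbd6 and Ddit3, of the neighbours Slc26a10 and F420014N23Rik, and of the listed target Atf5 described below, are uncertain in this respect.

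The genes whose levels most resembled those of a member were found by the Pearson correlation of log2 CPM over the 8 libraries, among tested genes averaging 50 counts or more. Libraries of the 4 groups are not independent points, so these values are descriptive. For Mars1 they were Gm34086 (r = 0.998), Gm51705 (0.995) and Gm41698 (0.995), and for Mbd6 Gm44148 (0.995), Gm6287 (0.995) and Gm51705 (0.994). Mars1 and Mbd6 correlated at 0.991. All 5 predicted genes overlap a named gene on the opposite strand, namely Vps37b, St3gal4, Hbegf, Usp18 and Zfp655. How common such overlaps are among all tested genes was not counted, so they are not shown to be particular to these genes or to those below. Counts of Gm34086, for example, were 788 and 810 (vehicle), 327 and 326 (12-HETE), 802 and 837 (vector), then 342 and 355 (ADAR1 p150).

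For Ddit3 the nearest profiles were 2310001K24Rik (r = 0.993), Tctex1d4 (0.989) and Gm34921 (0.988), which overlap Fitm2, Btbd19 with Plk3, and Dusp6 on the opposite strand. Counts of Gm34921 were 582 and 551 (vehicle), 511 and 494 (12-HETE), 618 and 575 (vector), then 305 and 343 (ADAR1 p150). For Atf4 they were Eif3c (0.981), an initiation factor subunit gene, Nars (0.98), the asparaginyl-tRNA synthetase gene, and Prpf39 (0.961), a splicing factor gene. For Asns the likeness was weaker, with Ddb1 (0.865), Mov10 (0.834) and Cops3 (0.788).

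Among listed targets of ATF4 and CHOP other than the members, 22 of 38 were tested, and more were lower than higher with both treatments. With 12-HETE, 0 were called higher by edgeR or DESeq2 (3 at an unadjusted p under 0.05) and 7 lower (Cebpb, Slc3a2, Slc38a2, Gdf15, Sqstm1, Jdp2 and Ndrg1), against 6.12% of all genes higher and 8.25% lower. The median log2 fold change was -0.65, where that of all genes was 0.004. With ADAR1 p150, 1 was called higher and 9 lower (5 at a minimum of 10 counts in every library, where 14 were tested), against 8.11% and 4.69% of all genes. The median was -0.71, where that of all genes was 0.066. The 9 were Atf5, Cebpb, Slc7a5, Slc7a1, Slc38a2, Shmt2, Gdf15, Sqstm1 and Jdp2. The controls differed as well: for vector against vehicle 0 were called, and the median was -0.32, with 16 of the 22 below 0. That of all genes was -0.008. The list holds amino acid transporters, enzymes and transcription factors that ATF4 or CHOP is known to raise, and it was put together with results of these data known, so its direction is a description.

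Sqstm1, an autophagy receptor gene, fell in both comparisons. Its counts went from 137 and 189 (vehicle) to 49 and 55 (12-HETE), and from 121 and 123 (vector) to 66 and 61 (ADAR1 p150), at log2 fold changes of -1.83 (SE 0.18, edgeR adjusted p = 4.65e-10) and -1.23 (SE 0.18, edgeR adjusted p = 2.1e-06). Slc38a2, a transporter of small neutral amino acids, fell by 1.33 (SE 0.17, edgeR adjusted p = 2.22e-07) and 1.77 (SE 0.20, edgeR adjusted p = 1.14e-08) on the log2 scale. Cebpb, which encodes a dimer partner of CHOP, fell by 1.56 (SE 0.24, edgeR adjusted p = 2.79e-06) and 1.42 (SE 0.23, edgeR adjusted p = 1.64e-05).

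Atf5, a transcription factor gene under the same kind of translational control as Atf4, was the most counted of the called targets. Its counts were 302 and 286 (vehicle), 408 and 408 (12-HETE), 368 and 313 (vector), then 173 and 178 (ADAR1 p150). The log2 fold change was 0.28 (SE 0.12, edgeR adjusted p = 0.0627) with 12-HETE and -1.25 (SE 0.12, edgeR adjusted p = 1.01e-09) with ADAR1 p150. Atf5 overlaps Nup62 by 571 bases on the opposite strand, at means of 304.5 counts for Atf5 and 5.9 for Nup62. How reads were shared between these strands was not tested either. Vldlr, a lipoprotein receptor gene, was the only listed target called higher, at 1.71 (SE 0.31, edgeR adjusted p = 5.6e-05) with ADAR1 p150. It was at -0.77 (SE 0.33, edgeR adjusted p = 0.0815) with 12-HETE.

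Another 16 listed targets were under the count minimum, Chac1, Ddit4, Atf3 and Slc7a11 among them. No library had more than 22 counts of any of these. Of 35 listed genes with a promoter sequence, Asns and Trib3 included, 12 held the C/EBP-ATF element, and 2 of these, Jdp2 and Vldlr, were among the called genes above.

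**Figure D5:**
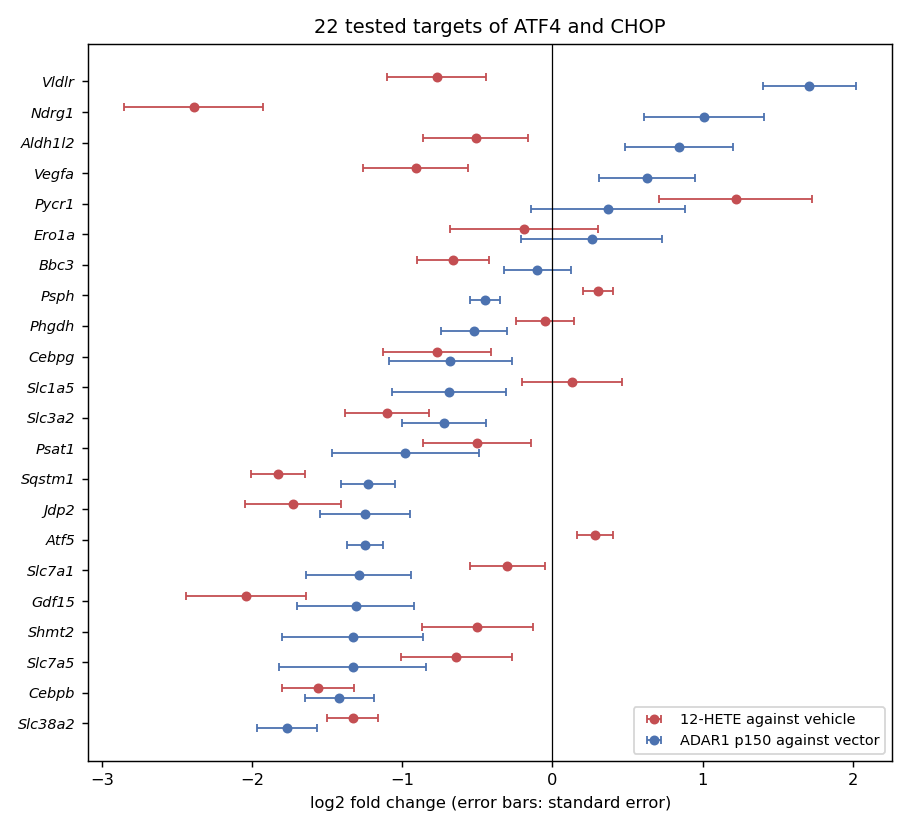
Log2 fold change (x axis, error bars are the standard error) of the 22 tested targets of ATF4 and CHOP other than the members, with 12-HETE (red) and with ADAR1 p150 (blue), ordered by the latter. With 12-HETE 7 of them were called lower, and with ADAR1 p150 9 were called lower and Vldlr higher.

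In the tRNA synthetase class of Mars1, the number of called genes depended on the setting. Of 22 cytosolic synthetases and complex genes other than Mars1, 19 were tested. With 12-HETE 0 were called in either direction by edgeR as fitted here or by DESeq2, against 6.12% of all genes higher and 8.25% lower, 3 (Nars, Sars and Wars) being lower at an adjusted p alone and 5 at an unadjusted p under 0.05. In edgeR 1 was called lower with RLE factors, 2 in a fit of the 4 libraries and 1 to 2 when any 1 library was left out. The median log2 fold change was -0.22. With ADAR1 p150 0 were called higher by edgeR or DESeq2 (2 at an unadjusted p under 0.05) and 5 were called lower (Aars, Cars, Nars, Sars and Wars, and 2 by DESeq2), against 8.11% and 4.69% of all genes, and the median was -0.40. Leaving out 1 library changed the count with ADAR1 p150 to between 1 and 6, the lowest being without vector replicate 2 or ADAR1 p150 replicate 2. This overlaps the range with 12-HETE, and the treatments were not compared over the class. Between the controls, vector against vehicle, 0 were called, and the class median was -0.6, with 18 of the 19 below 0. The class median thus lay further from 0 between the controls than with either treatment.

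Counts of Sars, the seryl-tRNA synthetase gene, were 84 and 79 (vehicle), 57 and 44 (12-HETE), 60 and 75 (vector), then 46 and 24 (ADAR1 p150). The log2 fold change was -0.88 (SE 0.22, edgeR adjusted p = 0.00204) with 12-HETE, under the 2-fold rule, and -1.24 (SE 0.24, edgeR adjusted p = 0.000148) with ADAR1 p150. Nars was at -0.59 (SE 0.21, edgeR adjusted p = 0.0343) and -1.16 (SE 0.25, edgeR adjusted p = 0.000616). Aars, the alanyl-tRNA synthetase gene, was at -0.53 (SE 0.28, edgeR adjusted p = 0.15) and -1.28 (SE 0.36, edgeR adjusted p = 0.00677). Of the mitochondrial synthetases 3 of 17 were tested, and Tars2 rose with ADAR1 p150, from 20 and 4 counts with vector to 76 and 75, at 2.35 (SE 0.36, edgeR adjusted p = 4.42e-06).

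Upstream of Atf4, 9 of 18 eIF2 kinase and eIF2 machinery genes were tested, and the kinase genes Eif2ak2 and Eif2ak3 were under the minimum. Eif2s3x, which encodes the gamma subunit of eIF2, was the only 1 called, and it rose with both treatments. A count of 1 among 9 genes is near the share of all genes called higher, 6.12% with 12-HETE and 8.11% with ADAR1 p150. Its counts went from 31 and 57 (vehicle) to 176 and 165 (12-HETE), and from 21 and 34 (vector) to 95 and 62 (ADAR1 p150). The log2 fold changes were 1.76 (SE 0.21, edgeR adjusted p = 3.18e-08) and 1.21 (SE 0.26, edgeR adjusted p = 0.000475). The median of the list was -0.07 with 12-HETE and -0.15 with ADAR1 p150.

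Of the unfolded protein response, 14 of 27 genes were tested, of which DESeq2 called 0 with either treatment. With 12-HETE 1 was called higher and 2 lower, counts that at this list size lie near the 6.12% and 8.25% of all genes, and the median log2 fold change was 0.26. Pdia6, a disulphide isomerase gene, rose by 1.03 (SE 0.33, edgeR adjusted p = 0.0154), and the stress sensor genes Atf6 and Atf6b were at -1.41 (SE 0.47, edgeR adjusted p = 0.0214) and -1.32 (SE 0.45, edgeR adjusted p = 0.0259). With ADAR1 p150 1 was called higher and 2 lower, against 8.11% and 4.69% of all genes, at a median of -0.07. For vector against vehicle the list median was -0.34. Edem1, a gene of the disposal of misfolded glycoproteins, was at 1.17 (SE 0.40, edgeR adjusted p = 0.03), Atf6b at -2.01 (SE 0.52, edgeR adjusted p = 0.00391), and Ern1, the gene of the sensor IRE1, at -1.39 (SE 0.43, edgeR adjusted p = 0.0158).

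Of the methyl-CpG-binding domain and PR-DUB genes other than Mbd6, 7 of 15 were tested. Counts of 0 or 1 in so short a list lie near the shares of all genes called, 6.12% higher and 8.25% lower with 12-HETE and 8.11% and 4.69% with ADAR1 p150. With 12-HETE Hcfc1, which encodes a chromatin scaffold protein, rose by 1.12 (SE 0.37, edgeR adjusted p = 0.0204) and Foxk1, a forkhead factor gene, fell by 1.95 (SE 0.38, edgeR adjusted p = 0.000138), the latter alone being called by DESeq2, at a list median of 0.35. With ADAR1 p150 0 were called in either direction by edgeR or DESeq2, 0 had an unadjusted p under 0.05, and the median was -0.13. Mbd6 therefore stood outside the range of -0.19 to 0.28 of its listed relatives with ADAR1 p150, and outside that of -1.95 to 1.12 with 12-HETE. These ranges are set beside a gene that was chosen for its low values. For vector against vehicle the list median was -0.19.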

How the data were processed

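The authors deposited raw counts per gene for the 8 libraries, and these counts were used unchanged. Per the study's methods, RNA was extracted with Trizol, and libraries were made with a directional kit and sequenced in pairs. STAR aligned the reads to GRCm38, and featureCounts counted them. Duplicates were removed with prinseq for the RNA editing analysis, and whether this was also done for the counts is not stated. The sample labels name another extraction and library kit. If duplicates were removed, counts of abundant genes may be too low. Whether the counting used strand is not stated.

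Genes averaging 10 counts or more (6901 of 49997) were fitted in edgeR 4.0.16 (limma 3.58.1, R 4.3.3) by the quasi-likelihood test, with TMM factors and 1 coefficient per group. Adjusted p-values are Benjamini-Hochberg values over all 6901 genes, and a call needed an adjusted p under 0.05 together with a 2-fold change. The procedure was tested on simulated data. The floor for a count of 0 is 3 counts, which covers counting error only. No test was applied to Mars1 and Mbd6 under the treatments.

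Genes named are the 6 members, all tested genes within 250 kb, opposite-strand partners, up to 3 called genes with the smallest p per list, direction and treatment, and the 3 most like profiles per member (log2 CPM, prior count 2). Other genes given by name, as members of a count or as examples of overlap, were chosen after their values were seen. The members and lists were chosen with earlier results of these data known. Positions and promoters are from RefSeq GRCm38.p6, which held all 49997 symbols. Exons are from GENCODE M21, and 88.8% of symbols had a strand. DESeq2 1.42.0, RLE factors, other count minimums, fits of 4 libraries, a replicate block and leaving out each library were tried. The values of some listed genes are not reported here.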

Additional observations from a re-analysis of the deposited data

Results flagged for a closer look

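Of the 76 tested genes named above for which a difference was tested (Mars1 and Mbd6, chosen on both comparisons, were not), 17 differed between the effect of 12-HETE (against vehicle) and that of ADAR1 p150 (against vector) by an interaction contrast in edgeR, with p-values adjusted over all 6901 genes. By the same rule, an adjusted p under 0.05 alone, 6.68% of all 6901 genes were higher and 8.29% lower by this contrast. Values are the 12-HETE effect minus the ADAR1 p150 effect on the log2 scale. Among the members, the difference was 1.17 for Ddit3 (edgeR adjusted p = 6.19e-05) and 1.62 for Atf4 (edgeR adjusted p = 0.022). Ddit3 passed under each alternative in which the difference was fitted, whereas for Atf4 DESeq2 gave an adjusted p of 0.109. For Adar, the overexpressed gene, it was -4.49 (edgeR adjusted p = 0.000114).

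Among the listed genes the widest difference was that of Ndrg1, at -3.4 (edgeR adjusted p = 0.000153), with effects of -2.39 and 1.01. It was 1.53 for Atf5 (edgeR adjusted p = 7.44e-08), 0.76 for Psph (edgeR adjusted p = 0.000218), -2.48 for Vldlr (edgeR adjusted p = 0.000206), 1.53 for Pdia6 (edgeR adjusted p = 0.0268), -2.54 for Tars2 (edgeR adjusted p = 0.00377) and -1.82 for Foxk1 (edgeR adjusted p = 0.015). The marker Krt19 was at -1.09 (edgeR adjusted p = 0.0184).

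Among opposite-strand genes it was 0.7 for Rabepk (edgeR adjusted p = 0.000416) and 0.69 for Catsper2 (edgeR adjusted p = 0.000423). Among genes with a profile like that of a member it was 0.97 for 2310001K24Rik (edgeR adjusted p = 0.0316), 0.81 for Gm34921 (edgeR adjusted p = 0.000227), -0.65 for Gm44148 (edgeR adjusted p = 0.00321) and 0.54 for Prpf39 (edgeR adjusted p = 0.015). Apart from the members and Adar, most of these genes were named after their values were seen, so their differences are not independent of that choice.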

How the results depend on the processing

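Log2 fold changes of Mars1, Mbd6, Ddit3, Atf4 and Asns kept their sign under each alternative, and of their calls, those of Ddit3 and Atf4 with 12-HETE changed. Ddit3 passed an adjusted p of 0.05 at -0.34 with at least 10 counts in every library and at -0.35 in a fit of 4 libraries, and Atf4 missed it at -0.92 with DESeq2. The cause was not tested. Leaving out 1 library gave Mars1 -2.47 to -2.3 with 12-HETE and -2.61 to -2.22 with ADAR1 p150, Mbd6 -2.41 to -2.24 and -2.26 to -2.11, Ddit3 -0.46 to -0.26 and -1.73 to -1.27, Atf4 -1.19 to -0.65 and -2.93 to -2.2, and Asns -1.08 to -0.16 and -1.27 to -0.07. Atf4 missed the threshold without vehicle replicate 5 (-0.72) or 12-HETE replicate 5 (-0.65), where the lone library is assumed to vary like the other groups. Asns was nearest 0 without vehicle replicate 5 (-0.16), 12-HETE replicate 5 (-0.19) or vector replicate 2 (-0.07). Called ATF4 and CHOP targets ranged from 6 to 8 with either treatment when 1 library was left out, and were 5 with ADAR1 p150 at 10 counts in every library, where fewer genes were tested. Asns and Atf4 had no value under that minimum.

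Genes called with 12-HETE (991), with ADAR1 p150 (884) and by the difference (575) came to 590, 441 and 254 with DESeq2 and to 2021, 1766 and 1033 at an adjusted p alone. At 10 counts in every library, where fewer genes were tested, the first 2 came to 481 and 429. Between vector and vehicle, 3 genes (795 at an unadjusted p under 0.05) became 6 with RLE factors, 0 with DESeq2 (232), 0 at 10 counts in every library (540), 11 with no minimum, 1 in a fit of 4 libraries and 8 at an adjusted p alone.

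The replicate numbers come from the labels. Deviations of same-numbered libraries correlated at -0.0798 and -0.114, so no shared shift was seen. With 2 libraries a group and counting error in each, a weak one could be missed, and pairing stays undecided. The replicate block gave 942, 813 and 506 calls, and changed no call of a member. The crossed pairing, added after seeing the data, gave 921 and 633 for ADAR1 p150 and the difference. Precision is limited by counts: Trib3, at 1 to 3 counts, could not be compared, and with no minimum it was at -0.61 and -1.59 (edgeR adjusted p = 0.892 and 0.681).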
